A study of Mus musculus with 54 samples.

Results

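M2-like macrophages in which Stat6, Pparg, Myc and E2f1 had been knocked down at once with siRNA (iM1 macrophages) were compared with mock treated macrophages that had been polarized towards M1 directly (M1 mock). The comparison asks which M1-like features the knockdown left below, at or above their level in M1-like cells. It rests on 6 of the 54 RNA-seq libraries of the series, 3 of iM1 and 3 of M1 mock macrophages, chosen by their labels. All cells were adherent peritoneal exudate macrophages, elicited with thioglycolate in C57BL/6 mice of 8 to 20 weeks. The iM1 cells were held for 24 h with 10 ng/ml IL-4, transfected with the 4 siRNA pools by DharmaFECT 4 and collected 48 h after transfection. The study's methods state that IL-4 was absent from the culture after transfection. The M1 mock cells were held for 24 h with IFN-γ at 50 ng/ml and LPS at 100 ng/ml, then received the transfection reagent without siRNA, and were collected at the same time. Whether LPS and IFN-γ stayed on the M1 mock cells in that time is not stated. Thus the 2 groups differ in the stimulus, in having received siRNA and in the knockdown, and the contributions of these cannot be told apart from the 6 libraries alone. To place the levels, 2 further groups of 3 libraries were read beside them: IL-4 treated macrophages with reagent only (M2 mock) and IL-4 treated macrophages with a negative siRNA pool. The study's methods call the 3 replicates of the M0, M1-like, M2-like and iM1 groups biological, while the labels do not say whether they came from separate mice or wells, so the p-values measure the spread between these libraries.

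IFN-γ acts on genes with gamma-activated sites (GAS) and raises the transcription factor IRF1. Among the genes it drives are inducible nitric oxide synthase, the class II transactivator CIITA and the guanylate-binding proteins that attack vacuoles of intracellular pathogens. Type I interferons signal through a complex that holds STAT2 and IRF9 on interferon-stimulated response elements (ISRE), while LPS acts through NF-kB on cytokines such as TNF and through IRF3 on interferon-β. IL-4 acts through STAT6 on genes of alternative activation such as Retnla, Chil3 and Mrc1.

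The 6 libraries held between 15181112 and 18092315 counted reads. Levels are given as counts per 1000000 reads (CPM, with TMM-normalised library sizes), and a gene was called when its adjusted p (edgeR's quasi-likelihood test, Benjamini-Hochberg) was under 0.05. Macrophage markers were abundant in both groups, with a summed level of 8 markers of 11910 to 12880 CPM in iM1 and of 6448 to 7490 CPM in M1 mock libraries. Of these 8 markers, 5 were higher in iM1 macrophages and 1, Cd14, was lower. In bulk samples, fewer cells of a type and less RNA per cell cannot be told apart.

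Of 14172 genes tested, 3858 (27.2%) were higher and 3635 (25.6%) lower in iM1 than in M1 mock macrophages. Differences of at least 2-fold were seen for fewer genes, of which 1599 were higher and 715 lower. The M1-like features were read as the genes higher in M1-like macrophages by at least 2-fold over M2-like ones both in the 24 h polarization experiment and in the untransfected macrophages of the reprogramming experiment, libraries that take no part in the comparison. Of these 748 features, 452 (60.4%) were lower in iM1 than in M1 mock macrophages, 300 of them at least 2-fold, whereas 99 (13.2%) were higher and 197 were not called. Their median log2 fold change was -0.78, against -0.0066 over all genes tested. Not all 748 were high in M1 mock itself: 651 were higher there than in M2 mock, 7 were lower and 90 were not called. Against M2 mock, 494 of the same 748 features were higher in iM1 macrophages, where 19.0% of all genes tested were higher, and 15 were lower, where 18.1% of all genes were lower. In macrophages with the negative siRNA pool, 279 of the 748 (37.3%) were higher than in M2 mock and 6 were lower. Of all genes tested, 6.67% were higher and 5.03% lower there. The M2-like features, defined in the mirror image, numbered 924, of which 732 (79.2%) were higher in iM1 than in M1 mock macrophages and 10 were lower. Against M2 mock, 519 of them were lower in iM1 macrophages and 27 higher. Under the negative siRNA pool, 169 of them (18.3%) were lower than in M2 mock and 37 higher. Comparisons that name the same group share its libraries. The counts depend on how the features are defined: from the 24 h polarization experiment alone, 769 of 1963 tested M1-like features (39.2%) were lower and 476 (24.2%) higher. With the change under the negative siRNA pool subtracted (iM1 minus negative pool plus M2 mock minus M1 mock), 11 of the 748 M1-like features were higher in place of 99.

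**Figure D1:**
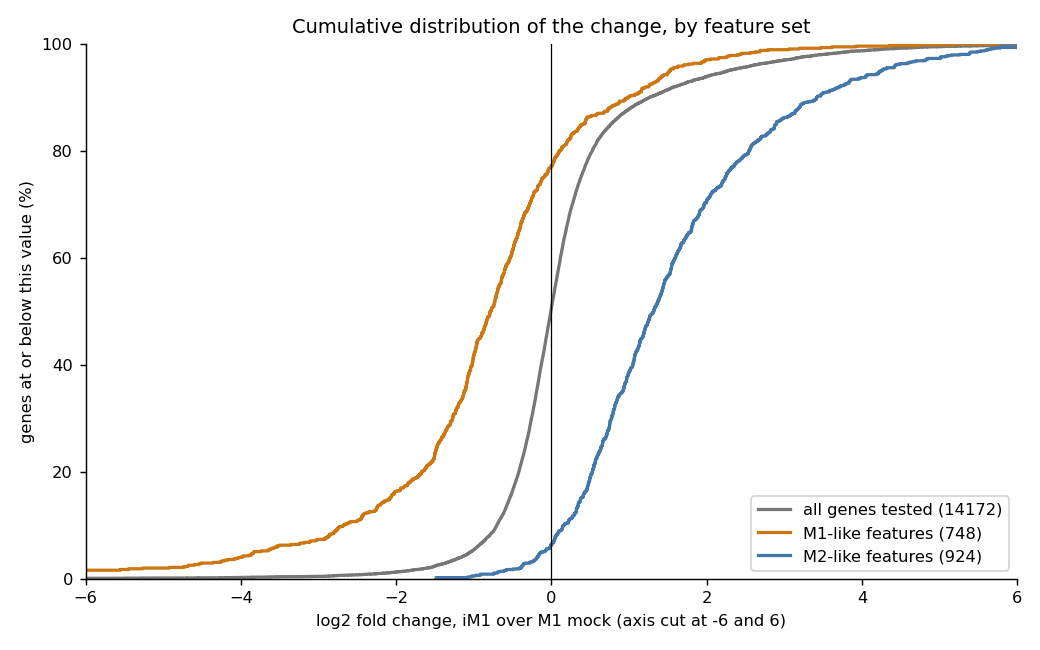
Cumulative share of genes (y axis, percent) at or below a given log2 fold change of iM1 over M1 mock (x axis) for all 14172 genes tested, the 748 M1-like features and the 924 M2-like features. The curve of the M1-like features lies to the left of that of all genes, with a median of -0.78, and the curve of the M2-like features to the right.

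The 12 largest decreases, among genes whose mean log2 CPM reached 2 and whose groups did not overlap, were Serpina3f, Nos2, Cxcl9, Gbp4, Clic5, Gm5970, Iigp1, Serpina3g, Tgtp1, Gbp8, Wnk2 and Calhm6. All 12 belonged to the M1-like features. Their log2 fold changes ran from -8.62 for Serpina3f to -4.25 for Calhm6. Serpina3f and Serpina3g, serine protease inhibitors of a clustered family, stood at 0.109 to 0.304 CPM and at 2.67 to 4.44 CPM in iM1, against 54.2 to 91.7 CPM and 47.1 to 115 CPM in M1 mock macrophages. Clic5, a chloride intracellular channel protein, stood at 3.91 to 5.35 CPM in iM1 and at 140 to 237 CPM in M1 mock macrophages. Wnk2, a kinase of the WNK family, was the only 1 of the 12 with an iM1 mean below the M2 mock mean (2.61 against 2.96 CPM). Family members with near-identical sequence (Serpina3f and Serpina3g, Tgtp1 and Tgtp2) and overlapping gene models (Gbp4, Gbp8 and Gbp9) may share reads, so the value of a single member is uncertain.

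The 12 largest increases were Retnla, Chil3, Ccl9, Ms4a4c, Ifit3b, Siglecf, Ifit1bl1, Itgax, Siglec1, Col6a2, Slfn4 and Col6a1, with log2 fold changes from 9.61 to 4.22. Without M1 mock replicate 2, Retnla was at 11.5, and without M1 mock replicate 3, Col6a2 was at 5.21. They fell into different kinds of genes. Retnla, Chil3, Ccl9, Siglecf, Itgax, Col6a1 and Col6a2 are M2-like features. Against M2 mock, Ccl9, Col6a1 and Col6a2 were not called, Retnla, Chil3 and Itgax were lower in iM1 macrophages and Siglecf was higher. Ms4a4c, Ifit3b, Ifit1bl1 and Slfn4, which interferon induces in macrophages, were above both mock groups: Slfn4 stood at 410, 467 and 403 CPM in the iM1 libraries, at 29.96, 20.2 and 12.3 CPM in M1 mock and at 14.1, 24.5 and 13.9 CPM in M2 mock libraries. Col6a1 and Col6a2 code for chains of collagen VI, a product of fibroblasts. They moved with a list of 6 fibroblast and mesothelial markers, of which all 5 tested were higher in iM1 macrophages. The summed level of that list was 197 to 312 CPM in iM1, 17.1 to 33.7 CPM in M1 mock and 143 to 238 CPM in M2 mock libraries, with Msln and Krt19 at or near 0, and its part in these values was not tested.

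**Figure D2:**
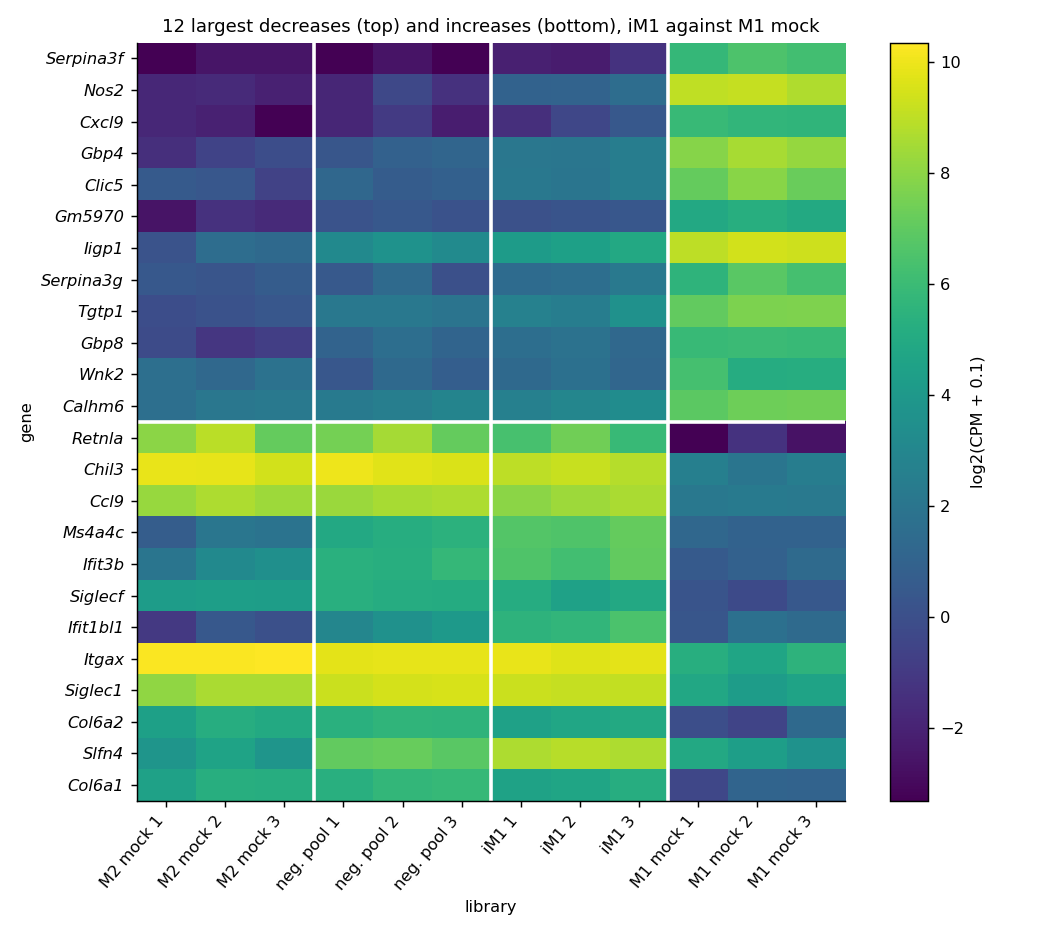
Level of the 12 largest decreases (top) and the 12 largest increases (bottom) of iM1 against M1 mock as log2(CPM + 0.1) (color) in each of the 12 libraries of 4 groups (columns). In every top row the 3 iM1 libraries lie below the 3 M1 mock libraries and in every bottom row above them.

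**Figure D3:**
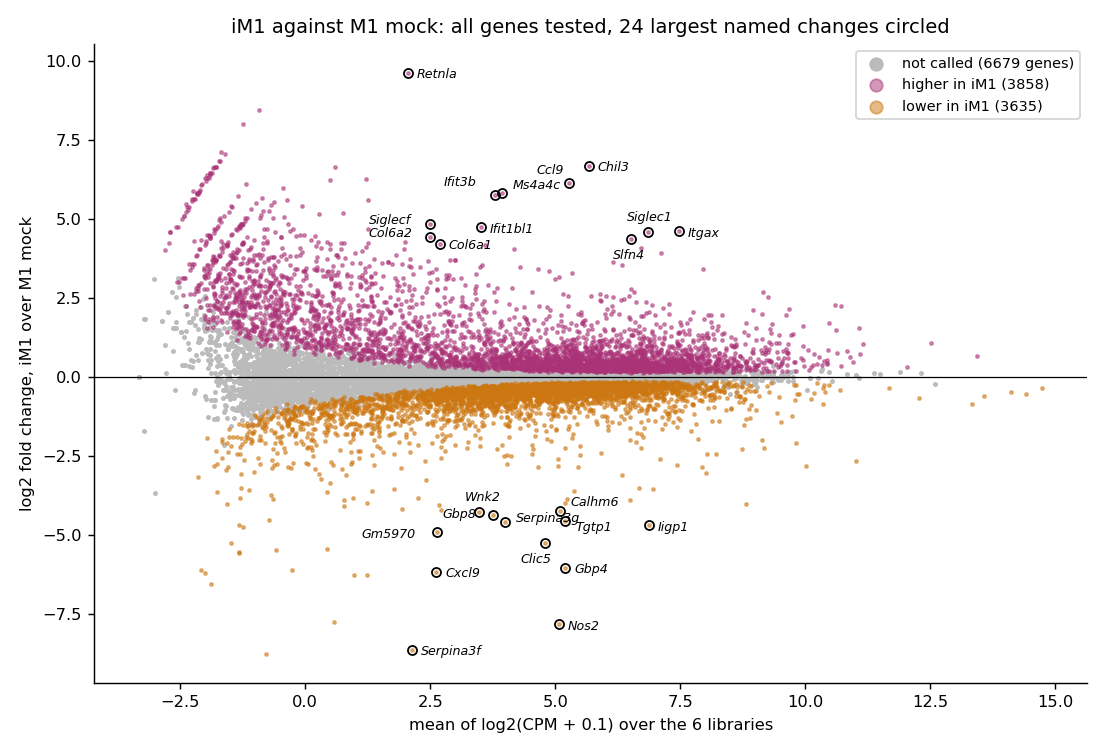
Log2 fold change of iM1 over M1 mock (y axis) against the mean of log2(CPM + 0.1) over the 6 libraries (x axis) for 14172 genes, with the 24 largest named changes circled. The called genes lie on both sides of 0, 3858 above and 3635 below it.

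Nos2, the inducible nitric oxide synthase (GRCm38, chromosome 11, 78920787 to 78960254, plus strand), stood at 1.84, 1.96 and 2.86 CPM in the iM1 and at 524, 560 and 421 CPM in the M1 mock libraries. Every iM1 library was far below every M1 mock library. The iM1 mean of 2.22 CPM was 0.442% of the M1 mock mean, with a log2 fold change of -7.82 (SE 0.22, edgeR adjusted p = 4.85e-22). Nos2 was nevertheless 3.56 higher on the log2 scale in iM1 than in M2 mock macrophages, whose libraries held 0.192, 0.210 and 0.139 CPM (edgeR adjusted p = 1.1e-05). Slc7a2, a carrier that supplies arginine to the enzyme, was also lower in iM1 than in M1 mock macrophages, with means of 39.0 and 116 CPM (log2 fold change -1.56, SE 0.18). By contrast Gch1, which makes the cofactor tetrahydrobiopterin, stood at 92.8, 78.9 and 112 CPM in iM1 and at 47.1, 45.1 and 46.3 CPM in M1 mock libraries, a log2 fold change of 1.03 (SE 0.10). Pts and Spr, the following steps of cofactor synthesis, were higher by 0.60 (SE 0.12) and 0.53 (SE 0.14). Of the 9 tested genes on nitric oxide and arginine, 4 were higher (44.4%) and 2 lower (22.2%), against 27.2% and 25.6% of all genes tested. Arg1, the arginase that competes for arginine, was not called, at 43.4 CPM ± 31.9 (SD, n = 3) in iM1 and 56.2 CPM ± 24.4 in M1 mock libraries (log2 fold change -0.37, SE 0.65).

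Most chemokines that attract T cells were lower as well. Cxcl9 stood at 0.254, 0.652 and 1.28 CPM in iM1 and at 58.6, 50.6 and 48.8 CPM in M1 mock libraries (log2 fold change -6.16, SE 0.30). Ccl5, a chemokine of T cells and monocytes, stood at 21.9, 32.3 and 60.1 CPM in iM1, at 467, 353 and 505 CPM in M1 mock and at 1.66, 1.75 and 1.74 CPM in M2 mock libraries. The iM1 libraries were thus between the other groups, with no overlap, at -3.53 (SE 0.45) against M1 mock and 4.46 against M2 mock on the log2 scale. Cxcl16 was 0.92 lower (SE 0.14). Cxcl10, which shares its receptor with Cxcl9, went the other way, at 12.8, 11.4 and 34.9 CPM in iM1 against 1.69, 8.99 and 4.18 CPM in M1 mock libraries. Its log2 fold change was 1.97 (SE 0.46, edgeR adjusted p = 0.000592), with the iM1 replicate 3 above the other libraries. Without that library it was 1.27, without M1 mock replicate 2 it was 2.75, and with the negative pool's change subtracted Cxcl10 was no longer called (0.68). Cxcl9 was at -6.79 without iM1 replicate 3. Of the 4 tested members of this list, 3 were lower and 1 was higher.

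All 14 tested guanylate-binding proteins and immunity-related GTPases were lower in iM1 than in M1 mock macrophages, 12 of them at least 2-fold, with a median log2 fold change of -3.15. Gbp4 stood at 4.20, 4.02 and 5.47 CPM in iM1 and at 235, 377 and 286 CPM in M1 mock libraries (log2 fold change -6.04, SE 0.21). Gbp2, the most abundant in reads, stood at 105, 88.2 and 147 CPM against 1382, 2251 and 1897 CPM (log2 fold change -4.02, SE 0.24). Neither overlapped between the groups. The smallest differences were those of Gbp9, at -0.75 (SE 0.20), and Irgm1, at -0.98 (SE 0.14). Against M2 mock, all 14 members were higher in iM1 macrophages, by a median of 2.05 on the log2 scale. In macrophages with the negative siRNA pool all 14 were higher than in M2 mock as well, by a median of 1.40, where 6.67% of all genes tested were higher and 5.03% lower. Both of these comparisons share the M2 mock libraries. With the negative pool's change subtracted, all 14 members remained lower.

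To show the upstream sequences of genes that moved in opposite directions, the bases before the transcription start were read from RefSeq windows of GRCm38.p6 and searched on both strands for TTCNNNGAA (GAS) and GAAANNGAA (core of ISRE). Of all 27025 genes with a window, 8.13% held the first and 8.18% the second within the 250 bases before a start. A window was found for 10 of the 14 GTPases and 23 of the 30 type I interferon-stimulated genes. These are too few of each list, so that shares over these lists are void and only single members of them are shown. The stretches below are written 5′ to 3′ on the strand of the gene with the match in capitals. Irf1 and Tgtp1 were lower in iM1 than in M1 mock macrophages, and Ifit3b and Isg15 were higher.
Irf1 (GAS, chr11:53769904-53769952, plus strand): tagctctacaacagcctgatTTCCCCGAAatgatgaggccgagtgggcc
Tgtp1 (GAS, chr11:48992306-48992354, minus strand): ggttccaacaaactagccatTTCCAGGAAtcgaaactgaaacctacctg
Tgtp1 (ISRE core, chr11:48992295-48992343, minus strand): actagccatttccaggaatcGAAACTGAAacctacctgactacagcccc
Ifit3b (ISRE core, chr19:34607784-34607832, plus strand): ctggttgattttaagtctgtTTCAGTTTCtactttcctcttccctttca
Isg15 (ISRE core, chr4:156200862-156200910, minus strand): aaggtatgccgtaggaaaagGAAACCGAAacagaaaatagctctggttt
In Tgtp1 both motifs lay within the same stretch, at 88 and 77 bases before the start. The match of Irf1 lay 90 bases before its start, that of Ifit3b 153 and that of Isg15 72 bases before it. Neither motif was confined to genes of a single direction. Among lower genes, Gbp2, Gbp2b, Gbp3, Irgm1, Cxcl9, Socs1 and Cd274 held only the ISRE core, and Irf1 held only GAS. Among higher genes, Ifit1, Ifit3, Ifit3b, Isg15, Oas1g, Oas3, Rsad2, Ifih1, Trim30a, Stat2 and Cxcl10 held only the ISRE core. Ifit2, Isg20 and Eif2ak2, also higher, held only GAS. Lower genes with both motifs were Gbp7, Irgm2, Igtp, Tgtp1 and Tgtp2, and higher genes with both were Oas1a and Bst2. Whether the motifs differ in frequency between the directions was not tested. A match describes letters and was not tested as a binding site.

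Irf1 stood at 87.0, 85.2 and 99.6 CPM in iM1 and at 679, 815 and 737 CPM in M1 mock libraries, with M2 mock at 42.3, 55.0 and 56.1 CPM. The iM1 libraries lay just above the M2 mock libraries and far below the M1 mock libraries (log2 fold change against M1 mock -3.04, SE 0.13, and against M2 mock 0.83). Irf8, a macrophage regulator that pairs with IRF1, was 1.53 lower (SE 0.08) than in M1 mock and 0.33 lower than in M2 mock macrophages. Batf2, another partner of IRF1, was 1.95 lower (SE 0.18). NF-kB members did not share this direction. Nfkbia, the inhibitor of NF-kB and also its target, stood at 54.3, 53.4 and 86.3 CPM in iM1 and at 21.1, 38.1 and 23.97 CPM in M1 mock libraries (log2 fold change 1.22, SE 0.20). Relb was 1.003 higher (SE 0.16), and Rela was not called (log2 fold change -0.04, SE 0.09). Neither Nfkbia nor Relb was called between the negative siRNA pool and M2 mock (log2 fold changes -0.08 and -0.20). Of the 18 transcription factors of this list, 8 were higher (44.4%) and 7 lower (38.9%), against 27.2% and 25.6% of all genes tested.

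Most transcripts for antigen presentation by MHC class II were lower in iM1 than in M1 mock macrophages. Ciita, the master regulator of these genes (chromosome 16, 10480059 to 10528418, plus strand), stood at 8.77, 10.4 and 8.45 CPM in iM1, at 131, 165 and 141 CPM in M1 mock and at 30.7, 32.6 and 33.5 CPM in M2 mock libraries. All 3 iM1 libraries were below those of both mock groups. The log2 fold change was -3.98 against M1 mock (SE 0.15, edgeR adjusted p = 4.39e-20) and -1.80 against M2 mock (edgeR adjusted p = 3e-11). H2-Ab1, a β chain, stood at 442, 382 and 359 CPM in iM1, at 2679, 2616 and 2969 CPM in M1 mock and at 681, 758 and 760 CPM in M2 mock libraries. H2-Aa and H2-Eb1 were 2.25 (SE 0.13) and 2.28 (SE 0.12) lower than in M1 mock, and H2-DMa, which loads peptides, 3.11 lower (SE 0.11). Of the 10 members tested, 9 were lower than in M1 mock, by a list median of -2.12, and 6 were lower than in M2 mock macrophages. H2-Oa and H2-Ob lost the call without iM1 replicate 1 and without M1 mock replicate 1, respectively, and H2-DMb2 without M1 mock replicate 2. H2-Eb2 alone was called higher, from 40 reads in the 3 iM1 libraries and 1 read in the 3 M1 mock libraries, a ratio of 44.3 with a 95% exact counting interval of 7.50 to 1792. B cells also carry MHC class II. Their 4 markers were higher in iM1 (summed 12.97 to 24.7 CPM) than in M1 mock libraries (0.979 to 2.36 CPM), and their part in these values was not tested.

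Transcripts for MHC class I presentation differed less. Of the 19 members, 11 were lower, none was higher and 8 were not called, with a list median of -0.42. Nlrc5, the class I counterpart of CIITA, was 1.23 lower (SE 0.10) and the peptide transporter gene Tap1 1.01 lower (SE 0.12). Tap1 stood at 341, 305 and 343 CPM in iM1, at 630, 681 and 676 CPM in M1 mock and at 64.3, 92.9 and 92.4 CPM in M2 mock libraries, so that iM1 lay between the mock groups. H2-K1, a classical heavy chain, stood at 1072, 994 and 1162 CPM against 1032, 1058 and 1231 CPM in M1 mock and overlapped with it (log2 fold change -0.04, SE 0.11). Its level in M2 mock was 428, 477 and 478 CPM. Tapbp was likewise not called (log2 fold change -0.04, SE 0.12), nor was H2-T22 (0.09, SE 0.11). All 19 members were higher in iM1 than in M2 mock macrophages, by a median of 0.82, and 16 were higher under the negative siRNA pool than in M2 mock. With the negative pool's change subtracted, 17 of the 19 were lower than in M1 mock.

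Of 16 tested costimulatory and surface genes, 9 were lower and 2 higher, with a median of -0.76. Cd86, which costimulates T cells through CD28, stood at 20.2, 19.1 and 18.7 CPM in iM1 and at 114, 100 and 104 CPM in M1 mock libraries (log2 fold change -2.45, SE 0.12). Cd274, the gene of the inhibitory ligand PD-L1, was 2.08 lower (SE 0.08), with means of 438 and 1858 CPM. Cd40 was 1.69 lower (SE 0.18). Cd80, the other ligand of CD28, overlapped between the groups, at 15.3, 12.4 and 19.3 CPM in iM1 and 18.2, 17.0 and 16.8 CPM in M1 mock libraries (log2 fold change -0.15, SE 0.13). Icam1, an adhesion molecule, overlapped as well, at 112, 95.0 and 171 CPM against 114, 134 and 126 CPM (log2 fold change 0.01, SE 0.24), where M2 mock held 11.4 to 15.1 CPM. With the negative pool's change subtracted, Icam1 was at -0.95 and was called lower. Under the negative siRNA pool, 9 of the 16 genes were higher than in M2 mock, where 6.67% of all genes tested were. Tlr2 and the Fc receptor gene Fcgr1 were higher in iM1 macrophages by 1.11 (SE 0.19) and 1.82 (SE 0.22). Fpr1 lost its call without M1 mock replicate 2 or without any of the 3 iM1 replicates, with log2 fold changes from -2.70 to -0.32 when 1 library was left out.

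**Figure D4:**
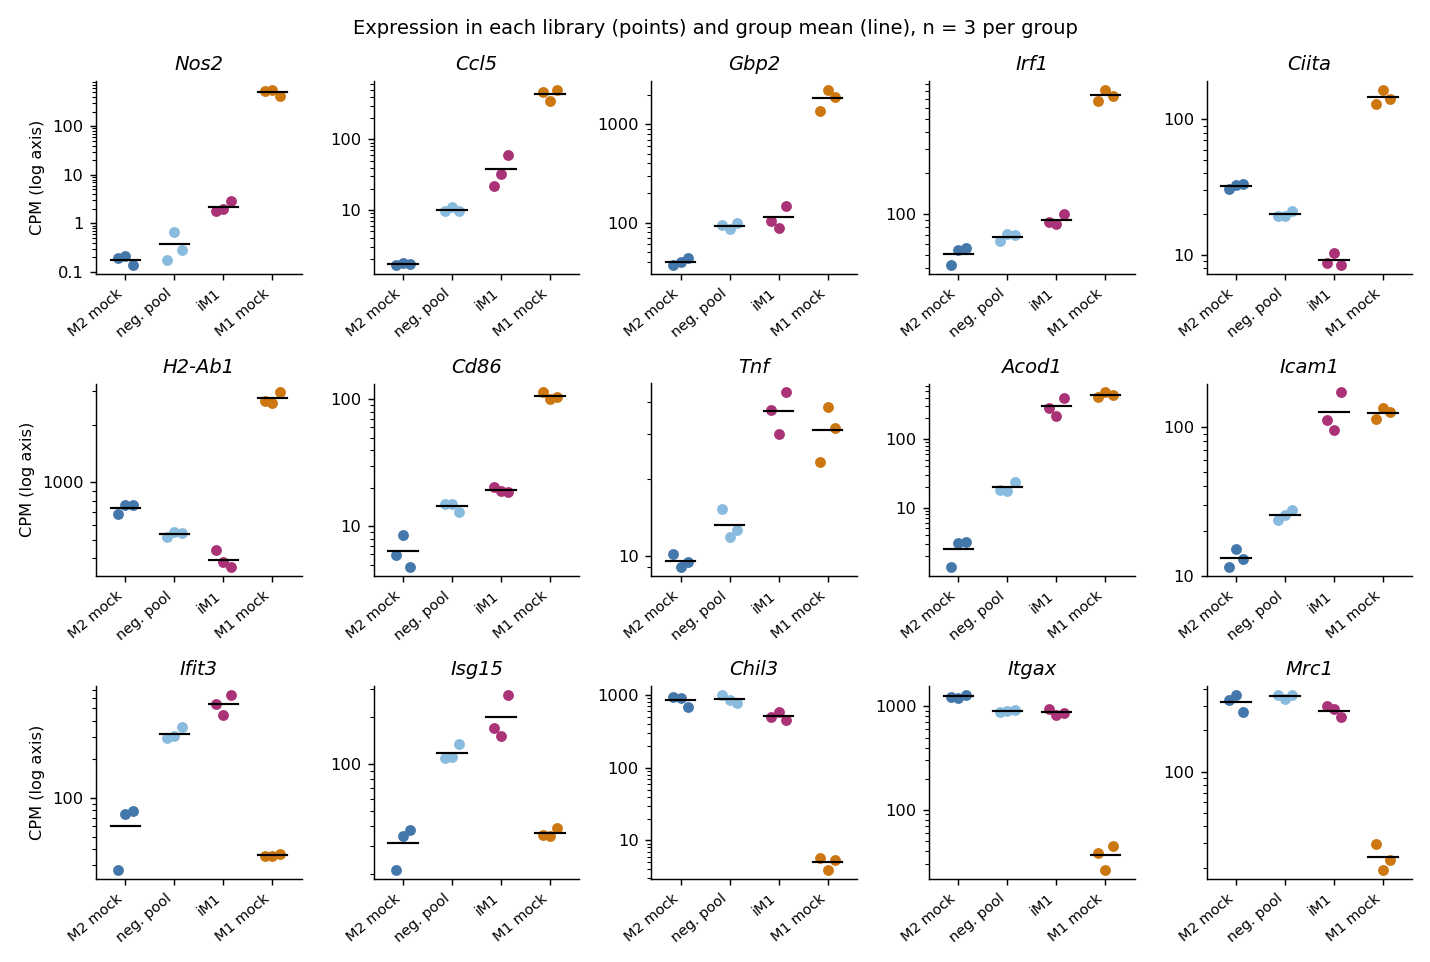
CPM (log axis) of 15 genes in each library (points) of M2 mock, negative siRNA pool, iM1 and M1 mock macrophages, 3 per group, with the group mean as a line. Nos2, Ccl5, Gbp2, Irf1, Ciita, H2-Ab1 and Cd86 are highest in M1 mock, Tnf and Icam1 overlap between iM1 and M1 mock, Ifit3 and Isg15 are highest in iM1, and Chil3, Itgax and Mrc1 are lowest in M1 mock.

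Among the 13 inflammatory cytokine genes tested, 2 were lower (15.4%), 5 higher (38.5%) and 6 not called. Over all genes tested 25.6% were lower and 27.2% higher. None of the cytokine genes was higher and 4 were lower once the negative pool's change was subtracted. Tnf stood at 37.3, 30.2 and 43.9 CPM in iM1, at 23.3, 38.3 and 31.9 CPM in M1 mock and at 10.1, 8.97 and 9.41 CPM in M2 mock libraries. Its iM1 and M1 mock values overlapped (log2 fold change 0.25, SE 0.18), and it was 1.96 higher than in M2 mock (edgeR adjusted p = 1.6e-09). Il6 was low in all groups, with a mean of 0.491 CPM in iM1 and 0.557 CPM in M1 mock libraries (log2 fold change -0.17, SE 0.48). The lower members belong to the interleukin-12 family. Il27 stood at 1.46, 1.74 and 2.01 CPM against 6.47, 7.46 and 7.89 CPM (log2 fold change -2.06, SE 0.30). Il12b had no read in iM1 and 29 reads in M1 mock libraries, at least 8.73-fold lower against a floor of 3 reads over the group. Intervals and floors cover counting error only. Ifnb1, the gene of interferon-β, had 48 reads in iM1, 2 in M1 mock and none in M2 mock libraries, a ratio of 26.6 over M1 mock with a 95% exact counting interval of 6.96 to 226. Il1rn, an antagonist of interleukin-1, was 0.73 higher (SE 0.16) and turned to -0.71 with the negative pool's change subtracted. Il10, an anti-inflammatory cytokine, was 2.02 higher (SE 0.51) at a mean of 1.10 CPM, and 2.66 higher without M1 mock replicate 2.

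Of 11 chemokines of monocytes and granulocytes, 8 were higher, 1 was lower and 2 were not called. After subtraction of the negative pool's change, 3 were higher (Ccl3, Ccl6 and Ccl9) and 2 lower. Ccl2, the main attractant of monocytes, stood at 43.6, 51.8 and 70.6 CPM in iM1 and at 58.3, 67.6 and 78.1 CPM in M1 mock libraries and overlapped (log2 fold change -0.30, SE 0.24), with 7.11 to 12.4 CPM in M2 mock. Ccl3 stood at 153, 141 and 149 CPM in iM1, at 39.2, 33.2 and 31.9 CPM in M1 mock and at 70.3, 65.1 and 62.4 CPM in M2 mock libraries (log2 fold change against M1 mock 2.08, SE 0.12). It was above both mock groups in all 3 libraries. Ccl4 was 1.75 higher than in M1 mock (SE 0.27) and 0.07 with the negative pool's change subtracted. Ccl6 and Ccl9, which are M2-like features, were 3.41 (SE 0.25) and 6.14 (SE 0.26) higher. Ccl8, the 1 lower member, and Cxcl1 and Ccl12 among the higher members lost the call without single libraries.

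Type I interferon-stimulated genes were above their M1 mock level. Of the 30 members, 29 were higher in iM1 than in M1 mock macrophages, 26 of them at least 2-fold, with a median log2 fold change of 1.63, and Zbp1 was not called (0.43, SE 0.27). Ifit3, an interferon-induced protein with tetratricopeptide repeats (chromosome 19, 34583531 to 34588731, plus strand), stood at 538, 446 and 639 CPM in iM1, at 35.5, 35.01 and 36.6 CPM in M1 mock and at 27.5, 75.4 and 78.8 CPM in M2 mock libraries. All 3 iM1 libraries were above all libraries of both mock groups (log2 fold change against M1 mock 3.92, SE 0.33, edgeR adjusted p = 1.6e-11). Isg15, a ubiquitin-like modifier, stood at 170, 151 and 276 CPM in iM1 against 35.2, 34.9 and 38.9 CPM in M1 mock libraries (log2 fold change 2.45, SE 0.30). Usp18, which removes that modifier, was 2.79 higher (SE 0.18), Mx1, an antiviral GTPase, 2.40 (SE 0.27), and Irf7, which amplifies interferon production, 1.51 (SE 0.31). In M1 mock against M2 mock, 8 of the 30 members were higher and 10 lower, where 30.9% of all genes tested were higher and 29.8% lower. Cells with the negative siRNA pool also held high levels: all 30 members were higher there than in M2 mock, by a median of 1.28, and Ifit3 stood at 292, 305 and 356 CPM. With the negative pool's change subtracted, 13 of the 30 members were higher than in M1 mock and 3 were lower, Ifit3 at 1.53 and Isg15 at 0.54. Family members such as Ifit3 and Ifit3b or the Oas genes may share reads.

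Genes of glycolysis were mostly lower in iM1 than in M1 mock macrophages, with the largest differences in transporter genes. Of 19 genes for glucose uptake, glycolysis and lactate, 17 were lower, 3 of them at least 2-fold, with a median log2 fold change of -0.78. The glucose transporter gene Slc2a3 differed most (log2 fold change -2.33). Slc16a3, the lactate exporter, stood at 57.2, 52.7 and 58.4 CPM in iM1 and at 190, 224 and 210 CPM in M1 mock libraries (log2 fold change -1.89, SE 0.11). Hk2, the inducible hexokinase, stood at 134, 122 and 127 CPM against 286, 277 and 245 CPM (log2 fold change -1.08, SE 0.07). Neither gene overlapped between the groups. Ldha, which makes lactate, was 0.92 lower (SE 0.09), and the glucose transporter gene Slc2a1 0.78 lower (SE 0.08). Aldoa was not called (log2 fold change -0.10, SE 0.08), and Slc2a6 was 0.34 higher (SE 0.14) with overlapping groups, a call lost without 4 of the 6 single libraries. Against M2 mock, 7 of the 19 were higher (36.8%) and 4 lower (21.1%), where 19.0% and 18.1% of all genes tested were.

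Acod1, which makes itaconate from a citrate cycle intermediate, stood far above the M2 mock level. It was measured at 288, 220 and 403 CPM in iM1, at 410, 481 and 438 CPM in M1 mock and at 1.34, 3.08 and 3.14 CPM in M2 mock libraries. The iM1 libraries lay below those of M1 mock without overlap, but the difference was not called (log2 fold change -0.55, SE 0.31, edgeR adjusted p = 0.144), and against M2 mock it was 6.92. With the negative pool's change subtracted it was -3.53. The list of itaconate and citrate cycle genes had 21 members, 7 of them higher (33.3%) and 2 lower (9.52%). Over all genes tested the shares were 27.2% and 25.6%. Idh1, the cytosolic isocitrate dehydrogenase and an M2-like feature, was 1.42 higher (SE 0.08), with means of 240 CPM in iM1, 89.6 CPM in M1 mock and 396 CPM in M2 mock libraries. Of the other members, Ogdh, a subunit of the oxoglutarate dehydrogenase, had the largest difference among those called, at 0.60 (SE 0.07), and Cs, the citrate synthase, was not called (log2 fold change 0.01, SE 0.07).

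Prostanoid genes moved apart. Ptgs2, the inducible cyclooxygenase, stood at 7.12, 8.86 and 14.7 CPM in iM1 and at 66.7, 53.7 and 44.3 CPM in M1 mock libraries (log2 fold change -2.42, SE 0.24). Ptgs1, the constitutive cyclooxygenase and an M2-like feature, stood at 28.5, 37.2 and 31.1 CPM against 7.45, 4.96 and 6.09 CPM (log2 fold change 2.39, SE 0.13). In neither did the groups overlap. The cystine carrier gene Slc7a11 and Nqo1, both targets of the oxidant sensor NRF2, were 1.42 (SE 0.21) and 2.27 (SE 0.28) higher. Cyba and Cybb, which form the core of the phagocyte NADPH oxidase, were 0.77 (SE 0.10) and 0.51 (SE 0.10) higher. Of the 16 members of this list, 9 were higher (56.2%) and 3 lower (18.8%), against 27.2% and 25.6% of all genes tested.

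**Figure D5:**
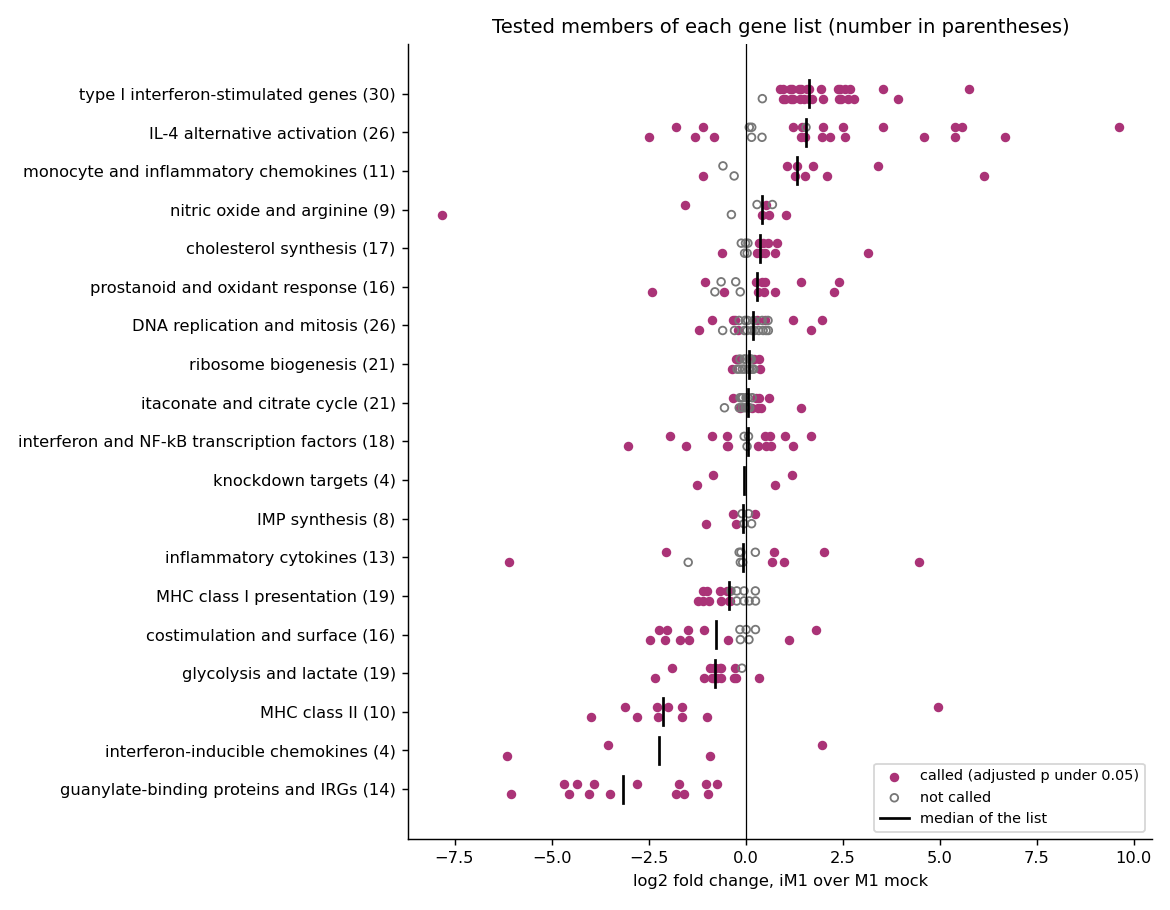
Log2 fold change of iM1 over M1 mock (x axis) for the tested members of 19 gene lists (rows, number of members in parentheses), ordered by the list median (black line), filled where called and open where not. The guanylate-binding proteins, at a median of -3.15, and the type I interferon-stimulated genes, at 1.63, stand at opposite ends.

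Many genes of alternative activation by IL-4 were higher in iM1 than in M1 mock macrophages. Of 26 tested members, 16 were higher than in M1 mock, each at least 2-fold, 5 were lower and 5 were not called. Chil3, a chitinase-like protein (chromosome 3, 106147554 to 106167564, minus strand), stood at 506, 591 and 448 CPM in iM1, at 5.76, 3.93 and 5.46 CPM in M1 mock and at 950, 910 and 687 CPM in M2 mock libraries. The iM1 libraries were below those of M2 mock and far above those of M1 mock (log2 fold change 6.68, SE 0.22). Retnla, the resistin-like protein of M2-like cells, varied more, at 83.9, 166 and 59.5 CPM in iM1 and at 0, 0.295 and 0.0580 CPM in M1 mock libraries (log2 fold change 9.61, SE 0.999, and 11.5 without M1 mock replicate 2). Mrc1, the mannose receptor, stood at 299, 285 and 249 CPM against 29.9, 19.2 and 22.9 CPM (log2 fold change 3.53, SE 0.16) and was not called against M2 mock (log2 fold change -0.22). Itgax, the integrin CD11c, stood at 950, 826 and 869 CPM in iM1 against 38.4, 26.1 and 44.8 CPM in M1 mock libraries. Clec10a, a lectin, overlapped with M1 mock, at 3.81, 5.54 and 3.65 CPM against 3.37, 4.62 and 3.71 CPM (log2 fold change 0.16, SE 0.26), where M2 mock held 10.4, 18.02 and 15.1 CPM. Mgl2, its close relative, stood at 3.77 CPM in iM1, 0.0707 CPM in M1 mock and 12.985 CPM in M2 mock as means, so that the value of either is uncertain where reads are shared. Slco2b1 had 16 reads in total over the iM1 libraries and none in the M1 mock libraries, at least 5.90-fold higher against the floor. It was nonetheless almost absent from iM1 macrophages, far below its 27.7 CPM in M2 mock. Of the 26 members, 12 were lower in iM1 than in M2 mock macrophages and 4 were higher.

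The 5 lower members of that list were Socs1, Cish, Tgm2, Klf4 and Il4ra. Socs1, an inhibitor of cytokine signalling that interferon also induces, stood at 8.77, 7.77 and 5.96 CPM in iM1 and at 26.3, 55.9 and 44.9 CPM in M1 mock libraries (log2 fold change -2.50, SE 0.25). Il4ra, the receptor chain for IL-4, was 0.80 lower (SE 0.09). All of these but Cish were M1-like features in these macrophages.

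The siRNA targets did not all fall to the M1 mock level. Myc stood at 8.58, 8.04 and 7.30 CPM in iM1, at 3.37, 2.80 and 4.35 CPM in M1 mock and at 21.0, 23.6 and 20.4 CPM in M2 mock libraries. Pparg, the lipid-sensing nuclear receptor, stood at 39.0, 38.1 and 33.5 CPM in iM1, at 23.1, 19.4 and 22.9 CPM in M1 mock and at 116, 128 and 112 CPM in M2 mock libraries. Both lay between the mock groups without overlap, above M1 mock by 1.19 (SE 0.19) and 0.76 (SE 0.09) on the log2 scale. E2f1 and Stat6 lay below both mock groups instead. E2f1 stood at 11.9, 11.9 and 12.6 CPM against 32.5, 28.7 and 25.0 CPM in M1 mock libraries (log2 fold change -1.24, SE 0.11), and Stat6 at 165, 168 and 142 CPM against 277, 297 and 282 CPM (log2 fold change -0.85, SE 0.09).

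Genes for cell division and biosynthesis were read beside the 27.2% higher and 25.6% lower of all genes tested. Of 26 genes of DNA replication and mitosis, 5 were higher and 5 lower (19.2% each). At least 2-fold were 3 of the higher and 1 of the lower genes. Ccne1, a cyclin of S phase entry, was lower (log2 fold change -1.195, SE 0.18), and Ccnb2, a cyclin of mitosis, was 1.97 higher (SE 0.37) at 1.42 CPM. Of 21 genes of ribosome biogenesis, 3 were higher and 3 lower (14.3% each), none at least 2-fold. Of 8 genes on the way to IMP, the first purine nucleotide, 1 was higher (12.5%) and 3 were lower (37.5%), with Prps2 at -1.01 (SE 0.14). In cholesterol synthesis and uptake, 11 of 17 genes (64.7%) were higher than in M1 mock and 1 was lower, with a median of 0.36. All 17 were lower than in M2 mock macrophages. Under the negative siRNA pool, 11 of the 17 were also lower than in M2 mock, with a median of -0.50. Of all genes tested, 5.03% were lower there.

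Most markers of other cells that were tested were higher in iM1 than in M1 mock libraries, and the fibroblast and mesothelial list described above had the highest sum. All 4 B cell markers were higher, as were all 3 tested of 5 mast cell markers (summed 4.20 to 5.29 CPM against 0.174 to 0.344 CPM). The eosinophil list was almost wholly Siglecf, at 34.96, 22.8 and 30.4 CPM in iM1 and 1.09, 0.737 and 1.28 CPM in M1 mock libraries, with Prg2, Epx and Ccr3 at or near 0. The neutrophil list was mostly Mmp8, with 56.8 to 63.2 CPM in sum against 23.7 to 27.5 CPM, while Ly6g and S100a9 had no reads in any of the 6 libraries. S100a8, also of that list, was lower in iM1 (log2 fold change -1.01). Of the 3 markers of large peritoneal macrophages 2 were higher (summed 24.3 to 27.4 CPM against 10.8 to 13.9 CPM), and the single tested of 3 NK cell markers was higher, with the list at 0.426 to 2.73 CPM against 0.0982 to 0.218 CPM. No dendritic cell marker was called, and T cell markers were at or near 0 in both groups. Their part in the differences above was not tested.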

How the data were processed

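The authors deposited raw read counts per gene for each library, made per the submitters' processing notes and the study's methods by trimming with Trimmomatic, alignment to mm10 with TopHat2 and counting with featureCounts. Whether counting used strand is not given in the sources used here. The 36 paired-end libraries of 12 groups were fitted in 1 model with edgeR 4.0.16 (R 4.3.3) by quasi-likelihood, with TMM normalization, no covariate and the filter filterByExpr (minimum count 10, minimum total 15). Genes with a Benjamini-Hochberg adjusted p under 0.05 were called, and SE is the standard error of the log2 fold change. DESeq2 1.42.0, which the study names, was an alternative, as were RLE normalization, no filter, a stricter filter, the 2 groups alone, a replicate block, leaving out each library, subtraction of the negative pool's change, and untransfected M1-like cells as the reference. Gene symbols and coordinates came from GENCODE M21 (GRCm38), and promoter windows from RefSeq (GRCm38.p6), which matched 10137 tested genes by symbol. Tables and figures were made with Python 3.11.15, NumPy 2.4.6, pandas 2.3.3 and matplotlib 3.10.9.

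M1-like and M2-like features had an adjusted p under 0.05 and a log2 fold change of 1 or more in size in both experiments named in the report. The text names the 12 largest changes in each direction (gene with a symbol, mean log2(CPM + 0.1) of at least 2, no overlap between groups), the 4 siRNA targets, and from each gene list up to 4 called members with the largest changes and up to 3 others, and a few more members named after their values were seen. Members and lists were chosen with earlier results of these data known. Pairs of replicates differed by a chi-square per gene of 4.48 to 15.4 among the 4 groups, above sampling noise, so each was counted. In simulated counts for 14172 genes of iM1 against M1 mock, edgeR recovered 99 of 100 genes changed by 2 and 95 of 100 changed by 1 on the log2 scale and called 9 unchanged genes. The changed genes were drawn only from those with more reads, and all other genes had equal means in all groups. These rates thus do not describe genes with few reads or a comparison in which many genes change. Below the filter and not tested were Gchfr, Cxcl11, Il12a, Il23a, Csf3, Il2ra, Chil4, Ccl17 and Cdh1, and Gbp5 and Gbp6 were not analysed here.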

Additional observations from a re-analysis of the deposited data

How the results depend on the processing

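Counts of genes higher and lower in iM1 than in M1 mock were 3858 and 3635. They became 3991 and 3381 with DESeq2, 4021 and 3455 with RLE normalization, 3931 and 3386 without a filter, 3470 and 3282 with the 2 groups alone, and 3845 and 3658 against untransfected M1-like macrophages. Counting only log2 fold changes of 1 or more in size they were 1599 and 715, with 300 M1-like and 3 M2-like features lower. With features from the 24 h experiment alone, 476 M1-like features were higher and 769 lower, and 293 M2-like features were lower. With features from untransfected macrophages alone, 832 M1-like features were lower, 1462 M2-like features higher and 16 lower. With 10 counts in every library, 6 M2-like features were lower. With the negative pool's change subtracted, 11 M1-like features were higher and 0 M2-like features lower, and 14 named genes turned direction on the log2 scale: Il1rn to -0.71, Zbp1 to -1.43, Csf1 to -0.057, Ifi44 to -0.52, Irf7 to -0.48, Stat2 to -0.11, Icam1 to -0.95, Sc5d to 0.51, Xaf1 to -0.32, Ccl7 to -0.013, Ccl12 to -2.41, Rsad2 to -0.90, H2-T22 to -1.11 and Ifit2 to -1.18. The cause was not tested. No other alternative turned the direction of a named gene that was called before or after the change. Genes not called did change sign without single libraries, such as Cxcl3 (-1.06 to 1.63), Marco (-0.54 to 0.61), Icam1 (-0.27 to 0.18) and Il6 (-0.54 to 0.12). Without single libraries the counts over all genes ran from 3512 to 3669 higher and from 3229 to 3391 lower. M1-like features ran from 91 to 100 higher and from 418 to 433 lower, and M2-like features from 690 to 716 higher and from 5 to 9 lower, with 5 without M1 mock replicate 1 or iM1 replicate 3 and 6 without iM1 replicate 1.

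Same-numbered iM1 and M1 mock libraries deviated together with correlations of 0.0934, 0.0363 and 0.165, and iM1 replicate 2 correlated best with M1 mock replicate 1 (0.110), so the numbers were not taken to pair the libraries. Over all 12 groups of the model, 198 same-numbered pairs had a median correlation of 0.183 (-0.249 to 0.627), against -0.0829 for 396 other pairs. With the number as a replicate block, 4051 genes were higher and 3842 lower.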
